A study of Brassica napus with 6 samples.

Results

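The shortest expressed genes of oilseed rape (Brassica napus, an allotetraploid with an A and a C subgenome) were described in cotyledons of wild-type and bnsdp1 mutant seedlings. A gene was included when its length in the deposited tables was at most 300 bp and its mean level over the 6 libraries was at least 1 CPM. CPM is the count of reads in a gene scaled to a common library total. The rule gave 662 genes, which were 9.18% of the 7211 genes of at most 300 bp and 1.52% of the 43418 genes of any length at this level. The tables held 100919 genes in all. The level limit used the mean over both genotypes and not their difference.

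Poly(A) RNA from cotyledons was sequenced in 3 libraries of the genotype labelled WT and 3 of the genotype labelled mutant, which the series' design text names as the line bnsdp1#CR88. The SDP1 gene (SUGAR-DEPENDENT1) encodes a lipase that releases fatty acids from stored oil after germination. The study asked how a disturbed lipid metabolism in cotyledons acts on gene expression in seedlings. Both genotypes were grown alike, on 1/2MS medium that held 1% sucrose, for 4 days in darkness and then for 6 h under conditions called normal. The mutant is a single line, and the labels give neither its allele nor the copies of SDP1 it carries. Nothing in the labels ties the 3 libraries of a genotype to different batches of seedlings. The p-values therefore rest on the variation among libraries, which may be technical.

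Gene models of this length in plants hold many kinds of sequence. Some encode complete small proteins, such as small ribosomal proteins, subunits of the photosystems, defensins and other cysteine-rich peptides, and precursors of signalling peptides. Others are fragments of longer genes, or pieces that an annotation has split from a neighbouring gene. The deposited tables do not pair identifiers with gene names or proteins, so which short gene belongs to which kind is not analysed here, nor are the levels of SDP1 and of tissue markers.

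Total counts in genes were between 48288744 and 65550668 per library. Genes were tested with edgeR's quasi-likelihood test over the 56385 genes that passed a filter on low counts, with Benjamini-Hochberg adjustment over all of them, and a gene is said to have risen or fallen in the mutant at an adjusted p under 0.05. All 662 short genes passed the filter. For comparison, each short gene was matched by mean CPM with the 5 nearest genes of 1000 to 2000 bp, which gave 3310 matched genes. The largest difference within a match was 0.0195 on the log2 CPM scale. In bulk RNA, fewer cells of a type and less RNA per cell cannot be told apart, and this holds for every difference below.

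Most short genes drew no reads in these cotyledons. Reads shared by near-identical copies may have been dropped, so a gene without reads need not be silent. No read fell in any library on 4019 of the 7211 genes of at most 300 bp (55.7%), against 21.2% of genes of 1000 to 2000 bp. A mean of 1 CPM was reached by 9.18% of the short genes and by 46.8% of genes of 1000 to 2000 bp. A short gene collects fewer reads at the same level per length. With the limit set at 1 CPM per kb instead, the shares were 17.6% and 42.6%.

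The expressed short genes were between 153 and 300 bp long, with a median of 243 bp. In 585 of the 662 (88.4%) the length was a multiple of 3, against 37.9% of the matched genes. Whether these spans hold untranslated ends was not analysed here. The 77 genes of other lengths had a median level of 12.3 CPM per kb, close to the 12.6 CPM per kb of the 585.

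The median level of the expressed short genes was 3.06 CPM, with quartiles of 1.64 and 7.27 CPM. Most were weak, and 432 lay under 5 CPM while 114 reached 10 CPM. Per length, the median was 12.5 CPM per kb. The matched genes had a median of 2.06 CPM per kb, a gap that follows from matching genes of unequal length on CPM. At the edge of the level limit, the 3 lowest genes inside had means of 1.004, 1.006 and 1.010 CPM and the 3 highest outside 0.998, 0.997 and 0.992 CPM. At the length limit, 18 expressed genes were 300 bp long, and the next lengths of 301, 302 and 303 bp held 0, 2 and 20 expressed genes that were not included.

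**Figure D1:**
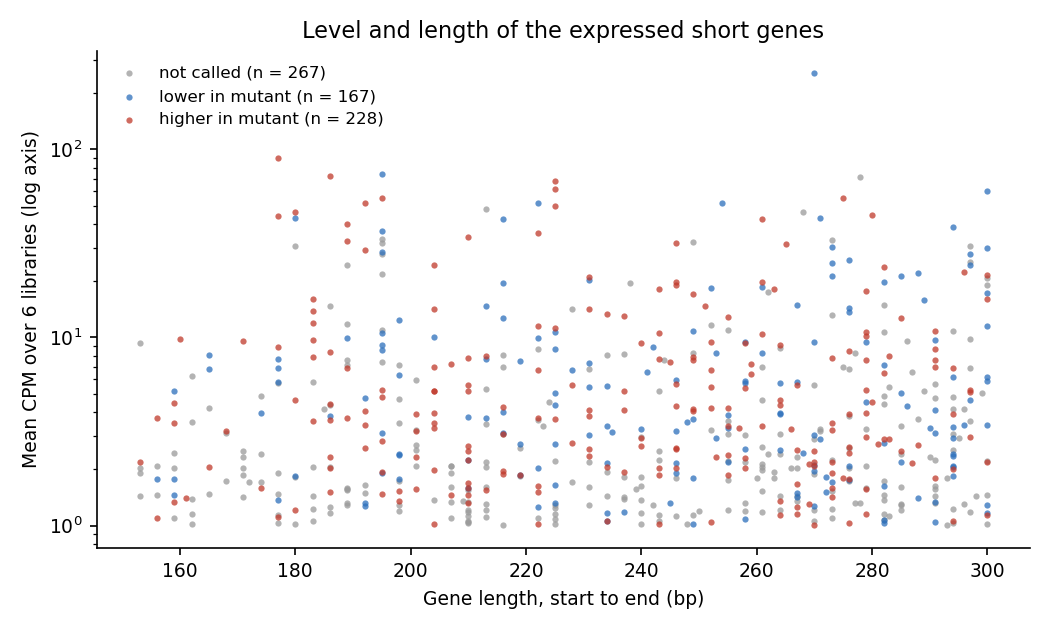
Mean CPM over 6 libraries (log axis) against gene length in bp for the 662 expressed short genes, 1 point per gene, coloured by the call of edgeR's test (228 higher in the mutant, 167 lower, 267 not called). Points stand in columns 3 bp apart, most lie under 10 CPM, and a single gene of 270 bp lies above 100 CPM.

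A 270-bp gene on chromosome A09 was the most abundant short gene by either scale, at 940 CPM per kb. It was counted at 283, 323 and 329 CPM in the WT libraries and at 197, 202 and 188 CPM in the mutant libraries. Every mutant library lay below every WT library. It fell by 0.63 on the log2 scale (SE 0.0959, adjusted p = 3.61e-04, edgeR). The next by level, a 177-bp gene on C03, rose from 72.7, 65.8 and 56.5 CPM to 121, 120 and 104 CPM, a log2 fold change of 0.87. These genes and those given below by chromosome and length were picked out after their values were seen. Genes printed by identifier were also chosen on their values, by a rule. It took the largest called changes between groups that do not overlap, at 5 CPM or more, and the most abundant uncalled genes.

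The bnsdp1 mutant differed from WT in 395 of the 662 short genes, or 59.7% of them, where 51.7% of all tested genes were called. Of these, 228 rose (34.4%, beside 25.5% of all tested genes) and 167 fell (25.2%, beside 26.2%). All genes at 1 CPM or more, the limit that the short genes also met, had calls in 57.9%, with 29.8% higher and 28.1% lower. Against these the share called among short genes was close, and the share that rose was 34.4% beside 29.8%. The share called among short genes moves with the level limit and was 51.1% at a limit of 0.5 CPM and 68.9% at 2 CPM. The matched genes had calls in 49.5%, with 21.9% higher and 27.6% lower. The higher genes thus made up 57.7% of the calls among short genes and 44.3% among matched genes. The matched genes share the libraries and the level of the short genes but are longer, and no test of the difference between the sets was made.

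Large changes showed the same side. At least 2-fold rises were found in 130 short genes (19.6%), beside 9.23% of all tested genes and 8.67% of the matched genes. At least 2-fold falls were found in 75 (11.3%), beside 13.0% of all tested genes and 12.8% of the matched genes. At 4-fold or more, 45 short genes rose (6.80%, beside 3.30%) and 25 fell (3.78%, beside 4.96%). These include genes that met the level limit through a single genotype, which are set apart below. Over all genes at 1 CPM or more, at least 2-fold rises and falls took 8.97% and 11.3%, and at least 4-fold ones 2.75% and 3.89%. Large falls among short genes were thus about as frequent as in all genes above that limit. The median level of that set was higher, at 6.99 CPM beside 3.06 CPM for the short genes. Among the matched genes, which share the level of the short genes, at least 4-fold rises took 2.87% and falls 4.68%.

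The median log2 fold change of mutant over WT was 0.15 over the short genes, 0.02 over all tested genes and 0.003 over the matched genes. The upper tail differed most in these values. The highest 10% of short genes began at a log2 fold change of 1.67 and that of the matched genes at 0.91, while the lowest 10% ended at -1.16 and -1.23. Without any model, the 3 mutant CPM values lay all above the 3 WT values in 240 short genes, or 36.3% (27.6% of all tested genes), and all below them in 191, or 28.9% (32.8%).

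**Figure D2:**
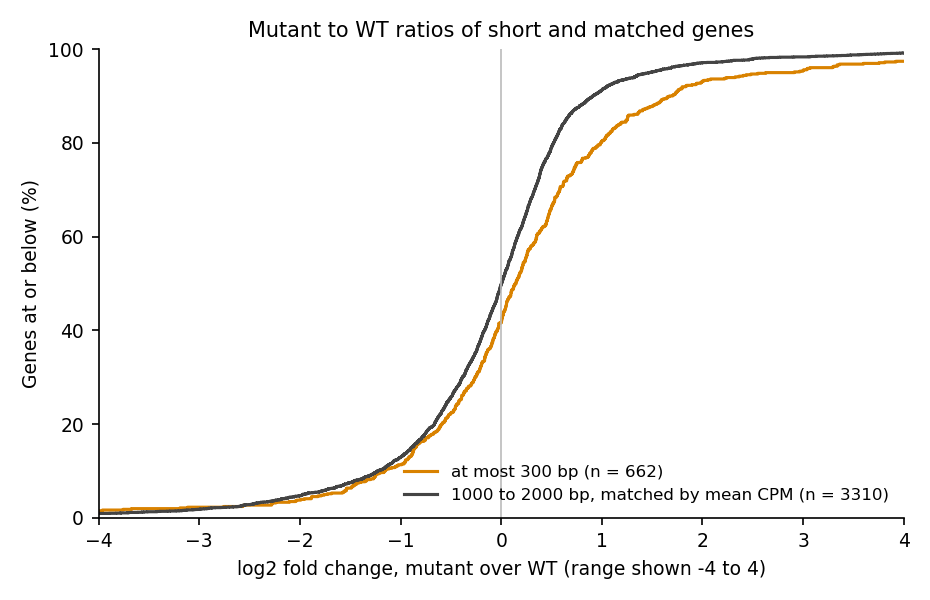
Cumulative share of genes (%) by fitted log2 fold change of mutant over WT, for the 662 short genes and the 3310 genes of 1000 to 2000 bp matched by mean CPM. The lines run together below a value of about -1 and part above it, with the short genes shifted to higher ratios. The range shown is -4 to 4.

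Because the level limit was set on the mean of both genotypes, a gene can pass it through the genotype where it is high. That held for 66 short genes that reached a mean of 1 CPM in the mutant alone (9.97%) and 46 in the WT alone (6.95%). Among matched genes the shares were 6.47% and 9.70%, the other way round. The 550 short genes at 1 CPM or more in both genotypes had 177 rises (32.2%) and 127 falls (23.1%), with 88 (16.0%) at least 2-fold higher and 42 (7.64%) at least 2-fold lower. The 2775 matched genes under the same limit had 21.6% and 23.7%, with 6.31% and 7.39% past 2-fold. At 4-fold or more, 20 of the 550 short genes rose (3.64%) and 7 fell (1.27%), beside 1.12% and 1.23% of these matched genes.

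In each of 4 equal classes by level, more short genes rose than fell. Among the 166 short genes with the lowest CPM, 21.7% rose and 15.7% fell, against 11.8% and 22.5% of their matched genes. Among the 166 with the highest CPM, from 7.28 CPM up, 42.8% rose and 33.1% fell, against 33.1% and 31.1%. Rises of at least 2-fold took 29.5% of that highest class and 9.28% of its matched genes.

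Length was followed further in all genes that reached 1 CPM on average. Within the short genes, at least 2-fold rises took 16.8% of the 149 genes of 150 to 199 bp, 24.5% of the 216 genes of 200 to 249 bp and 17.5% of the 297 genes of 250 to 300 bp. Beyond the limit the share was 16.0% at 301 to 400 bp and 16.9% at 401 to 500 bp, and then went from 11.5% at 501 to 700 bp to 6.11% at 5001 to 10000 bp. No step stood at 300 bp. At least 2-fold falls took 8.05%, 12.0% and 12.5% of the short classes and 15.9% of the next, and large rises outnumbered large falls in the short classes, at 301 to 400 bp (by 131 to 130) and at 401 to 500 bp, but in none of the longer classes shown. The median log2 fold change was 0.11, 0.25 and 0.10 in the short classes and 0.05 at 301 to 400 bp. It was also 0.13 in genes of 5001 to 10000 bp, so a median above 0 was not particular to short genes.

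**Figure D3:**
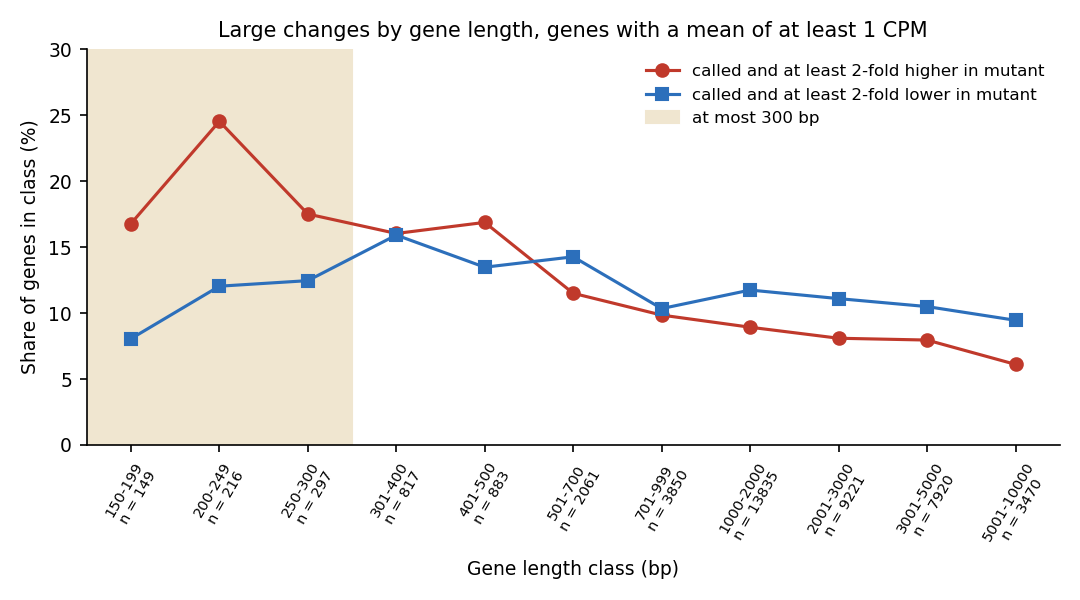
Share of genes (%) called and at least 2-fold higher (red circles) or lower (blue squares) in the mutant, by gene length class in bp, for genes that reached a mean of 1 CPM, with the number of genes under each class. The shaded classes are the short genes. The share of rises is 24.5% at 200 to 249 bp and 6.11% at 5001 to 10000 bp.

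The largest rise among short genes of 5 CPM or more was that of BnaC09G0558200ZS, a 225-bp gene on the minus strand of C09 (64460565 to 64460789 in the coordinates of the files). It was counted at 1.64, 2.29 and 2.63 CPM in WT and at 156, 128 and 120 CPM in the mutant. Groups that do not overlap were required of each named gene that rose or fell, so their separation adds no support. The means were 2.18 ± 0.503 CPM in WT and 134 ± 18.9 CPM in the mutant (SD, n = 3 each). The log2 fold change was 5.98 (SE 0.179, adjusted p = 8.69e-09 in edgeR's fit over all genes). Its nearest longer gene, 958 bp away on the opposite strand, fell with a log2 fold change of -1.44.

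BnaC05G0531900ZS, a 275-bp gene on the plus strand of C05 (55683705 to 55683979), went from 1.87, 2.32 and 1.65 CPM in WT to 122, 110 and 94.7 CPM in the mutant. The means were 1.95 ± 0.340 and 109 ± 13.5 CPM (SD, n = 3 each), and the log2 fold change was 5.83 (SE 0.162, adjusted p = 6.34e-09, edgeR). The nearest longer gene lay 4362 bp away on the same strand and also rose, with a log2 fold change of 3.33.

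The largest fall under the same rule was that of BnaC07G0363400ZS, a 282-bp gene on the plus strand of C07 (49157715 to 49157996). Its WT libraries held 39.4, 25.1 and 48.9 CPM and its mutant libraries 1.74, 0.946 and 1.69 CPM. The WT values themselves spanned a wide range, though the rule required the lowest to lie above every mutant value. The means were 37.8 ± 12.0 and 1.46 ± 0.445 CPM (SD, n = 3 each), and the log2 fold change was -4.66 (SE 0.271, adjusted p = 5.13e-07, edgeR). The longer gene 2932 bp away on the opposite strand was not called, at a log2 fold change of -0.18.

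BnaA09G0400000ZS, of 219 bp on the plus strand of A09 (46020337 to 46020555), was steady in WT at 15.3, 13.8 and 13.9 CPM. In the mutant it was counted at 0.331, 0.801 and 1.12 CPM. It fell from 14.3 ± 0.823 to 0.751 ± 0.398 CPM (SD, n = 3 each), a log2 fold change of -4.19 (SE 0.261, adjusted p = 8.16e-07, edgeR). Its nearest longer gene, 4351 bp away, fell with a log2 fold change of -0.38.

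The most abundant short gene without a call was BnaC01G0490600ZS, of 278 bp on C01 (56200859 to 56201136). It had 79.8, 90.3 and 72.2 CPM in WT and 50.9, 66.4 and 68.6 CPM in the mutant. The groups did not overlap, but the log2 fold change of -0.34 (SE 0.135) had an adjusted p of 0.0567 in edgeR's test. Over 12 other fits the adjusted p was between 0.0238 and 0.188 and passed the threshold in 6, among them the fit with a replicate block (0.0321) and that without WT replicate 3 (0.0238). BnaC07G0364400ZS, of 213 bp on C07 (49229261 to 49229473), had 53.0, 47.5 and 53.8 CPM in WT and 39.6, 49.5 and 44.9 CPM in the mutant. These ranges overlapped, and the log2 fold change of -0.16 had an adjusted p of 0.227.

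**Figure D4:**
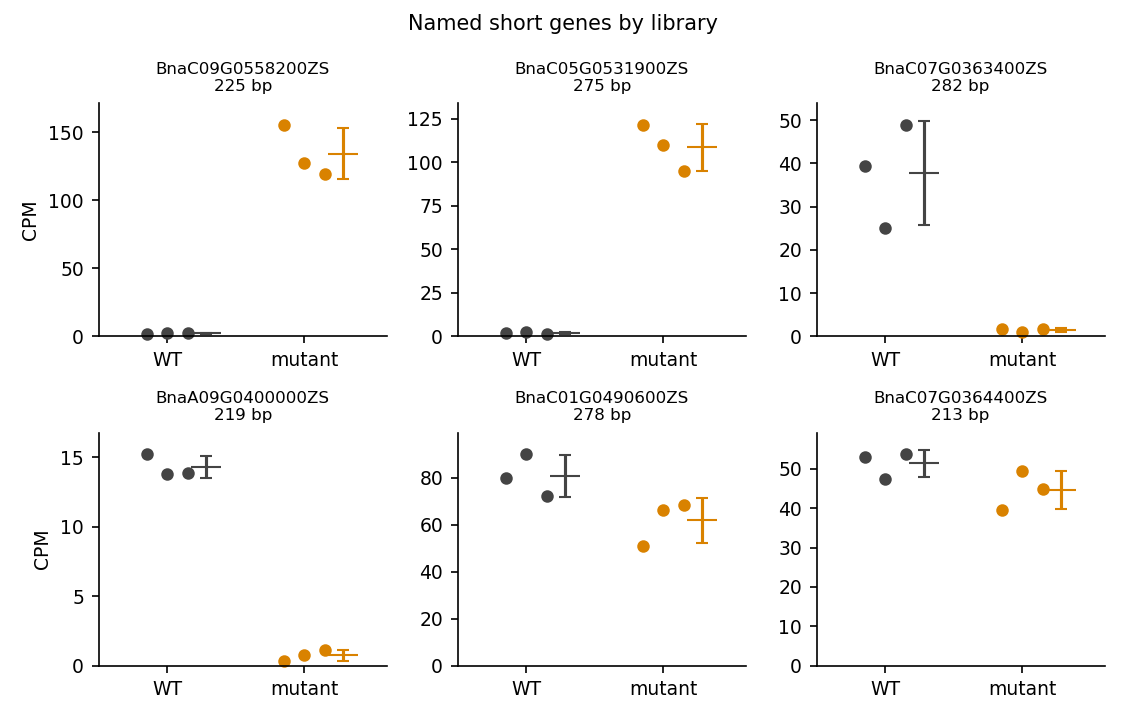
CPM per library (linear axis from 0) of the 6 short genes named by identifier, with 3 WT libraries in grey, 3 mutant libraries in orange, and bars for mean and SD. The first pair rose, the next pair fell and the last pair was not called. WT and mutant values do not overlap in the first 4, as the rule that chose them required, and overlap only in the last.

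Several large changes fell on short genes of equal length, at lengths picked out after their values were seen. As 585 of the 662 lengths were multiples of 3, many short genes share a length in any case. Over all 662, 34.4% rose, 25.2% fell and 6.80% rose at least 4-fold. Of the 11 expressed genes of 183 bp, 6 rose and 0 fell. At least 4-fold rises were found in 5 of them, on A01, A05, C01, C05 and C05. Across these 5, single WT libraries held 0.233 to 2.46 CPM and single mutant libraries 13.8 to 36.1 CPM, with log2 fold changes of 3.29 to 5.16. The 5 were taken for their large rises, so the gap between the genotypes follows from the choice. With WT values as low as 0.233 CPM, such genes can meet the level limit through the mutant alone. Their nearest longer genes lay 845 to 24986 bp away.

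Of the 12 expressed genes of 204 bp, 10 rose and 1 fell. The 5 that rose at least 4-fold were on A01, A03, C01, C03 and C07, at 0.0973 to 4.17 CPM in single WT libraries and 5.08 to 48.8 CPM in single mutant libraries. Their log2 fold changes were 3.07 to 5.73. Of the 18 expressed genes of 225 bp, 5 rose and 7 fell. At least 4-fold rises were found in 3, the named gene on C09 and others on A10 and C03. The A10 gene rose from 2.92, 3.54 and 2.96 CPM to 143, 108 and 109 CPM (log2 fold change 5.29). The C03 gene rose from 12.0, 11.6 and 10.5 CPM to 107, 76.5 and 81.3 CPM (log2 fold change 2.998), from a higher WT level than the other 2. Of the 10 expressed genes of 192 bp, 5 rose and 3 fell. Those on A08 and C08 rose at least 4-fold, with log2 fold changes of 4.58 and 4.13.

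Some large falls had a length in common too. Of the 20 expressed genes of 294 bp, 9 fell and 4 rose. At least 4-fold falls were found in 4, on A06, C02, C08 and C08, beside 3.78% of all expressed short genes. At least 4-fold higher was 1, on C04. The 45 genes that rose at least 4-fold were spread over 28 of the 95 lengths present. Whether genes of equal length are copies of each other was not analysed here, as sequences of the build were not used. Reads shared by near-identical copies may be divided among them or dropped, which makes the level of a single gene in such a group uncertain.

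A single short gene had 0 reads in all WT libraries. It was a 213-bp gene on C05 with 4.14, 3.04 and 2.097 CPM in the mutant, or 481 reads. Against a floor of 3 reads over the WT group it was about 177-fold higher in the mutant, or more. It met the level limit through the mutant alone, so its contrast is partly set by the rule. Genes without WT reads were not counted among the matched genes.

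The expressed short genes together held 0.451%, 0.463% and 0.466% of the counts in the WT libraries and 0.560%, 0.551% and 0.543% in the mutant libraries. The genotypes did not overlap, at 0.460 ± 0.00776% and 0.551 ± 0.00849% (SD, n = 3 each). The matched genes held 2.55 ± 0.0238% and 2.51 ± 0.0385%, which differed by about the spread between libraries. Of 2102 CPM gained by 367 genes, the 5 largest gainers took 534 CPM (25.4%) and the 10 largest 828 CPM (39.4%), while the other 295 genes together dropped by 1190 CPM. Without those 10 the sums were 4458 CPM in WT and 4542 CPM in the mutant. Leaving out genes chosen for their gain must lower the difference, and the 10 largest losers, which dropped by 445 CPM, were kept. With the length limit at 400 bp the direction reversed, and the mutant minus WT difference in the share of counts was -0.0661 percentage points, beside 0.0912 at 300 bp.

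The middle of the short genes moved less. The median log2 ratio of a mutant library to the WT mean was 0.06, 0.07 and 0.11 over the short genes and -0.03, -0.11 and -0.03 over the matched genes. The gap between the sets was 0.09, 0.18 and 0.14 in the mutant libraries and 0.01, 0.03 and -0.03 in the WT libraries, so the genotypes did not overlap in it.

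Expressed short genes lay more often on the C subgenome than matched genes did. Of the 662, 393 lay on C chromosomes (59.4%, exact 95% interval 55.5 to 63.1%), 268 on A chromosomes and 1 on an unplaced sequence. The C share was 50.1% (48.3 to 51.8%) over the matched genes, 51.4% over all genes at 1 CPM or more and 53.0% over all genes of at most 300 bp, many of which were unplaced. The intervals treat genes as independent, which members of a family are not. Of all short genes, 10.4% were on unplaced sequences. Among genes placed on chromosomes the C share was 59.5% for the expressed short genes and 59.2% for all short genes, so the expressed ones had the share of short genes in general. It was 50.6% for the placed matched genes. Among expressed genes by length, the C share was 64.4%, 57.4% and 58.2% in the 3 short classes, 56.7% at 301 to 400 bp, 57.6% at 401 to 500 bp, 54.3% at 501 to 700 bp and 50.2% at 701 to 999 bp. A raised C share was thus not particular to genes of at most 300 bp.

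By chromosome, the short genes ranged from 17 on A04 and on A10 to 57 on C05, which held 8.61% of them and 5.71% of the matched genes. On A chromosomes, 83 of 268 short genes rose (31.0%) and 76 fell (28.4%), beside 20.9% and 27.5% of the matched genes there. On C chromosomes, 145 of 393 rose (36.9%) and 91 fell (23.2%), beside 23.2% and 28.1% of the matched genes. The median log2 fold changes were 0.08 and 0.19, beside 0.02 and -0.02 for the matched genes of the same subgenomes. A difference between the subgenomes was not tested.

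Along the chromosomes, the shares of expressed short genes were close to those of matched genes. The outer 10% at each end of a chromosome's gene-covered span held 189 of them (28.6%, against 31.0% of matched genes), the outer 1 Mb 35 (5.30% against 5.89%) and the middle 20% held 13.3% (against 14.2%). The short genes as a whole were placed otherwise, with 20.8% in these outer stretches and 21.2% in the middle.

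None of the 662 expressed short genes overlapped another gene by 1 bp or more on either strand, where 8 of 3310 matched genes did (0.242%) and 1.61% of all genes at 1 CPM or more. Of all 7211 genes of at most 300 bp, 20 did (0.277%), and all 20 lay under a mean of 1 CPM. At shares this low, 0 of 662 does not set the expressed short genes apart from the matched genes. The nearest longer gene, meaning any gene of over 300 bp, lay at a median distance of 1256.5 bp from a short gene, with quartiles of 400.5 and 3554.5 bp. The median for the matched genes was 883 bp. Within 1000 bp there was a longer gene for 305 short genes (46.1%) and for 54.2% of matched genes.

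The arrangement of close neighbours differed as well. Within 500 bp upstream on the same strand, 9.37% of short genes had a longer gene and 5.83% of matched genes did. For a same-strand gene within 500 bp downstream the shares were 8.61% and 6.47%. A longer gene on the opposite strand within 500 bp downstream, so that the 3′ ends face each other, was found for 9.37% of short genes and 19.2% of matched genes. Opposite-strand genes within 500 bp upstream were found for 4.83% and 5.89%.

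Short genes close to a longer gene on the same strand had ratios like that gene's. Of 100 such pairs within 500 bp in which both genes were tested, 77 had log2 fold changes of the same sign. Pearson's r across the pairs was 0.73, which describes genes measured in the same libraries and carries no test. The median difference within a pair was 0.16 on the log2 scale, against 0.32 in 308 such pairs of matched genes, where 69.2% had the same sign and r was 0.31. One pair lay far out, a 153-bp gene on A09 at 5.71 with a longer gene 58 bp away at 5.44, and without it r was 0.57. Under DESeq2 and with no filter on low counts, which add 8 pairs, r was 0.58 and 0.54, and 0.40 and 0.36 without the most extreme pair. The share of the same sign was 74.1% in both.

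In 32 of these pairs both genes were called, and in 30 of them they went the same way, 23 up and 7 down. Among such pairs of matched genes, 62 of 82 went the same way (75.6%). The neighbour was upstream in 55 pairs (r = 0.65) and downstream in 45 (r = 0.80), with the far-out pair on A09 kept in. Per length, the short gene stood at a median of 1.77 times its same-strand neighbour. This ratio was 6.05 for opposite-strand neighbours within 500 bp and 5.98 for those at over 500 and up to 2000 bp. The limits on length and level keep short genes from low values per length, while the neighbours had only to pass the filter on low counts. A high ratio is thus partly set by the rule. Whether reads of the longer transcript run on into the short gene, or the 2 models belong to 1 transcript, was not tested.

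Opposite-strand neighbours fell into a pair of patterns. In the 26 pairs with starts facing each other within 500 bp, r was 0.82 and all 10 pairs with both genes called went the same way. In 132 such pairs of matched genes r was 0.19, and 18 of 31 went the same way. In the 50 pairs with 3′ ends facing each other r was -0.02, and 10 of 20 went the same way.

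Over both strands, 72.2% of 176 pairs within 500 bp had the same sign and r was 0.34. Beyond 500 bp the likeness was lower, but it did not fall steadily with distance. Among 156 short genes with the nearest longer gene at over 500 and up to 2000 bp, 57.7% had the same sign and r was 0.06. Among 159 beyond 2000 bp the values were 64.2% and 0.22, and for matched genes beyond 2000 bp 56.4% and 0.21. Large changes were most frequent in short genes over 2000 bp from a longer gene. At least 4-fold changes in either direction took 44 of the 249 genes over 2000 bp away (17.7%), 13 of 214 at over 500 and up to 2000 bp (6.07%) and 13 of 199 within 500 bp (6.53%), so the shares of the nearer classes were alike. Within 500 bp they took 4 of 110 with the longer gene on the same strand (3.64%) and 9 of 89 with it on the opposite strand (10.1%). For the matched genes the shares were 11.5% over 2000 bp away, 7.23% at the middle distance and 4.57% within 500 bp, with 4.14% and 4.77% by strand in the same order.

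**Figure D5:**
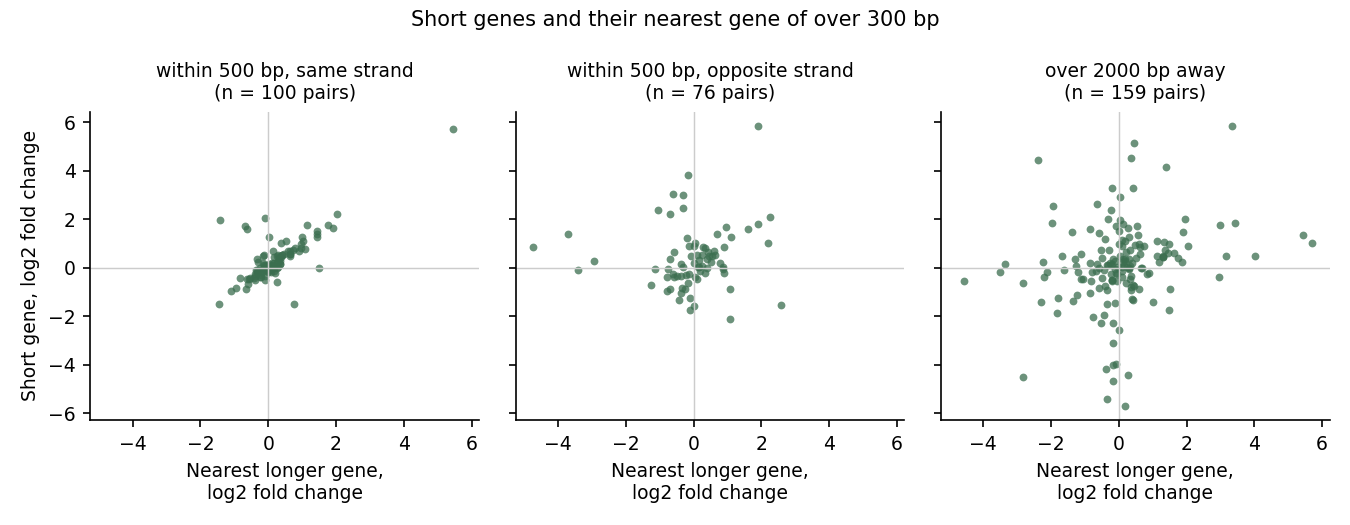
Fitted log2 fold change of a short gene (vertical) against that of its nearest gene of over 300 bp (horizontal), 1 point per pair with both genes tested. Within 500 bp on the same strand most of the 100 pairs lie along the diagonal, while the 159 pairs over 2000 bp apart spread along both axes.

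Of the 662 expressed short genes, 34 stood in 17 pairs of neighbouring short genes. Both were called in 7 of these pairs, and 5 of the 7 went the same way. No such count over other genes is given here, so whether these numbers are high or low was not tested. On C07, 2 genes of 300 bp lay 341 bp apart on opposite strands. They fell from 44.9 ± 3.88 to 14.7 ± 2.59 CPM and from 98.4 ± 5.71 to 22.2 ± 2.94 CPM (SD, n = 3 per genotype). On A01, genes of 261 and 280 bp on the same strand rose from 17.2 ± 2.31 to 67.6 ± 8.11 CPM and from 21.1 ± 8.78 to 69.1 ± 19.7 CPM.

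The spread between libraries was close to that of the matched genes. The median SD of log2(CPM + 0.5) within a genotype was 0.147 in WT and 0.149 in the mutant, against 0.147 and 0.151. The short gene with the widest WT spread was a 231-bp gene on C06, at 11.0, 5.10 and 1.81 CPM in WT and at most 0.166 CPM in each mutant library. A group of 3 genes of 270 bp, with 2 on C06 and 1 on C09, varied together in WT. They were counted at 1.00, 2.59 and 6.67 CPM, at 2.13, 5.43 and 9.40 CPM and at 1.34, 3.92 and 6.15 CPM in WT libraries 1, 2 and 3.

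In the mutant all 3 genes lay at or under 0.644 CPM in every library, and each below its own lowest WT value. Their log2 fold changes were -2.76, -3.67 and -3.19, and without WT replicate 3 they were -1.87, -3.12 and -2.69, all still called by edgeR.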

How the data were processed

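The deposited files hold unscaled read counts for each gene, with the columns that featureCounts writes, per the file headers. Per the submitters' processing notes the authors used fastp, HISAT2 and featureCounts. Their versions and the genome build, strand setting and handling of multi-mapping reads were not given in the sources used here. In 100% of rows the gene length equalled the distance from start to end, so counts cover whole spans. Genotype was taken from the labels.

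The members and lists were chosen with earlier results of these data known. Counts were tested with edgeR 4.0.16 in R 4.3.3 (filterByExpr, TMM scaling, glmQLFit and glmQLFTest with robust set to FALSE, no covariate, Benjamini-Hochberg adjustment over 56385 genes), after the fit had been tested on simulated data. CPM is a count scaled to a common library total. Matching took short genes from the highest level down and gave each the 5 unused genes of 1000 to 2000 bp nearest in log2 mean CPM. Distances run from gene edge to gene edge.

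Identifiers were printed for the 2 largest rises and the 2 largest falls among called short genes of 5 CPM or more and groups that do not overlap, and for the 2 most abundant uncalled ones. A table of 123214 named genes of another assembly (Da-Ae) held 0 of the files' identifiers, so gene families, cell type markers and SDP1 are not analysed here. Alternatives were DESeq2 1.42.0, limma 3.58.1 (voom), other scalings, no filter, a replicate block, each library left out, and other length and level limits. The exact interval covers counting error only.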

Additional observations from a re-analysis of the deposited data

How the results depend on the processing

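Over the reported fit and 12 others, 350 to 397 short genes were called, 202 to 208 with at least a 2-fold change, and 25676 to 29440 of all genes. The share higher in the mutant, in all and past 2-fold, was above that of the matched genes in 13 of 13 fits, and the share lower in 0 of 13. Leaving out 1 library at a time gave 350 to 394 short calls, a median log2 fold change of 0.11 to 0.17 over the short genes and calls in 43.8 to 47.7% of matched genes. DESeq2 called 46.7% of matched genes, and scaling by library size alone gave a median of 0.10. With a replicate block 382 short genes and 28376 genes in all were called. The deviations of same-numbered libraries correlated at 0.21, -0.06 and 0.07, so the numbers were not taken as pairs.

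The limits of the rule were varied next. At most 200 bp left 80 calls among 149 genes, a median of 0.11, a difference in the share of counts of 0.0417 percentage points (main value 0.0912), 64.4% on C chromosomes, 32.2% in the outer 10% at each chromosome end and a median SD of 0.141 (main value 0.148). At most 400 bp gave 897 calls among 1479 genes, a median of 0.087 and a median SD of 0.151, and the difference in the share of counts reversed to -0.0661 points. The cause was not tested. Without the gene with the most counts this difference was 0.103 points, and without the 10 largest gainers, 0.00843 points. The last of these and the position under other limits were chosen after seeing the data. Limits of 2 and 0.5 CPM gave calls in 68.9% and 51.1% of short genes. The median SD was 0.138 at a limit of 2 CPM, 0.154 at 0.5 CPM, 0.171 with log2(CPM + 0.1) and 0.126 with log2(CPM + 1). A longer gene lay within 500 bp of 30.1% and within 2000 bp of 62.4%. Low counts limit the weakest genes, and the origin of the replicates limits every p-value.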

Other observations

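Among the 6549 genes of at most 300 bp under a mean of 1 CPM, 717 passed the filter on low counts and 186 of these were called by edgeR (25.9%, beside 51.7% of all tested genes). The calls were even in direction, with 94 higher and 92 lower in the mutant, and 83 and 90 of them were at least 2-fold.

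The 77 expressed short genes whose length was not a multiple of 3 had 22 rises and 17 falls (50.6% called), against 206 and 150 among the other 585 (60.9%). Their falls of at least 2-fold numbered 5 (6.49%), beside 70 (12.0%). Rises of at least 2-fold took 18.2% and 19.8%.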
